A study of Mus musculus with 27 samples.

Results

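The transcriptomes of wild-type hair follicle stem cells (HFSCs) cultured in 2 media were compared across all genes by bulk RNA-seq. The FBS medium contained fetal bovine serum. In the atRA+PKCi medium the serum was replaced, and all-trans-retinoic acid (atRA) and Gö6976, which inhibits protein kinase C isoforms that need calcium (PKCi), were added. The 4 libraries were all those of wild-type cultures among 8 RNA-seq libraries and 27 samples of the series, 2 in each medium. They came from back skin of 2 wild-type mice at postnatal day 55, in telogen, when hair follicles rest, and each mouse gave 1 culture in FBS and 1 in atRA+PKCi. The cultures descend from HFSCs that had been purified by flow cytometry, expanded on growth-arrested feeder cells in serum medium, and then embedded in matrix droplets. Droplets were first fed serum medium with EGF or FGF10, and the serum-free medium that came next also contained B-27, cholesterol, calcium and the kinase inhibitor Y-27632. Per the study's methods, the serum medium held calcium and Y-27632 at the same concentrations. Effects of atRA, of PKCi, of the serum removed, of B-27 and of cholesterol cannot be told apart, because these changed together between the groups. Conditional knockout cultures of the retinoid receptor gene Rxra (Rxra cKO), 2 in each medium, entered the same fit and are mentioned only where the response of wild-type cultures was tested against theirs.

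In the skin, bulge HFSCs rest for long periods, express genes of the hair lineage and make no epidermis unless the skin is wounded. Retinol enters cells, is oxidized in steps to retinoic acid, and retinoic acid binds the nuclear receptors RAR and RXR on DNA. Retinoids are known in skin for their opposition to terminal epidermal differentiation and to AP-1, the FOS and JUN family of transcription factors that growth factors, PKC and injury activate. In serum, keratinocytes take on an activated state known from wound edges, with stress keratins, secreted proteases, ligands of the EGF receptor and cytokines.

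The libraries held between 28796500 and 30415200 estimated counts each, and values are CPM, counts per 1000000 of the TMM-normalized library, for mouse 1 and then mouse 2 of each medium. The correlation of log2 CPM across genes was 0.986 between the FBS cultures and 0.984 between the atRA+PKCi cultures. The share of counts from mitochondrial genes was 5.36% and 5.9% in FBS and 6.76% and 7.91% in atRA+PKCi, and its part in the results was not tested. Of 15965 genes tested, 4350 were higher in atRA+PKCi (27.2%) and 4249 were lower (26.6%), by edgeR's quasi-likelihood test at a Benjamini-Hochberg adjusted p under 0.05. Genes named below as risen or fallen passed this test and had no overlap between the media, a log2 fold change is atRA+PKCi over FBS, and ± is its standard error. The median log2 fold change over all genes tested was 0.03. Among genes that passed, 1781 rose and 1747 fell by more than 1 on the log2 scale, and 172 rose and 278 fell by more than 5. At an adjusted p under 0.01 together with an absolute log2 fold change over 1, 1381 genes were higher (8.65%) and 1579 were lower (9.89%). A called gene was thus common (53.9%), and the counts of each gene group below are read against the shares of 27.2% and 26.6%. In bulk samples, fewer cells of a type and less RNA per cell cannot be told apart.

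The largest rises were led by Prr5l (chr2:101714285-101883027, minus strand, GRCm38), an adaptor of the kinase complex mTORC2. No read of it was counted in FBS, and it stood at 33 and 32.7 CPM in atRA+PKCi, at least 583-fold higher against a floor of 3 counts over the FBS group. Krt15, the keratin that marks the bulge (chr11:100131758-100135928, minus strand), was at 3.65 and 4.75 CPM in FBS and 4576 and 4430 in atRA+PKCi (log2 fold change 10.07 ± 0.17, adjusted p = 6.16e-09). Calcb, a calcitonin gene-related peptide, had 2 counts over both FBS libraries and 1731 over both atRA+PKCi libraries, which is a 735-fold ratio (95% counting interval 203 to 6070). In each case the cultures of 1 medium lay close together and far from those of the other. Glul makes glutamine from glutamate and ammonia, and it stood at 14.8 and 14.5 CPM in FBS and 1097 and 1051 in atRA+PKCi (log2 fold change 6.19 ± 0.093). Ngfr, a neurotrophin receptor, was at 0.329 and 0.618 CPM in FBS and 53.7 and 50.6 in atRA+PKCi. Krt13, a keratin of mucosal epithelium, stood at 0.694 and 0.811 CPM in FBS and 93 and 80.1 in atRA+PKCi, and Cp, which encodes the ferroxidase ceruloplasmin, at 0.73 and 1.04 CPM in FBS and 78.5 and 75.4 in atRA+PKCi. The other genes among the 12 largest rises were Clca3a2, Btn1a1, Coq8a, B4galt6 and Ltbp2, with log2 fold changes of 9.01, 7.53, 6.23, 5.76 and 5.46.

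Among the 12 largest falls, 6 were genes of the late cornified envelope (Lce1a1, Lce1a2, Lce1b, Lce3b, Lce3d and Lce3e), the cross-linked shell of dead epidermal cells. Klk5, a protease of the shedding outer layer, was at 21.7 and 22.1 CPM in FBS and had no count in atRA+PKCi, at least 458-fold lower. Mmp13, a collagenase of wound-edge keratinocytes, stood at 2210 and 2387 CPM in FBS and 0.641 and 0.412 in atRA+PKCi (log2 fold change -12.08 ± 0.21, adjusted p = 6.16e-09). Mmp3, which encodes stromelysin-1, was at 535 and 510 CPM in FBS and 0.0641 and 0.158 in atRA+PKCi (log2 fold change -12.14 ± 0.21). Wfdc5, Gm5416 and 2210017I01Rik made up the rest. The Lce genes are near-identical neighbors, as are the stefin genes Gm5416 and BC100530, so the split of reads within each family is uncertain.

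**Figure D1:**
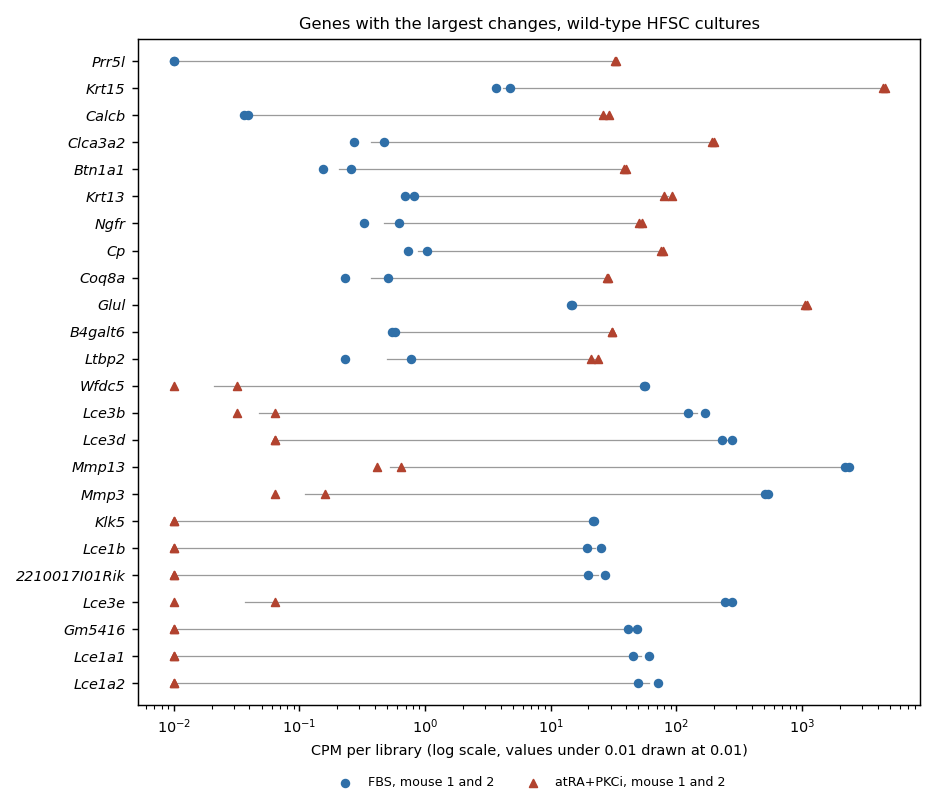
Levels of the 24 genes with the largest changes. The x axis is CPM on a log scale, with values under 0.01 drawn at 0.01; blue circles are the 2 FBS libraries, red triangles the 2 atRA+PKCi libraries, and lines join the group means. Media do not overlap for any of them, from Krt15, which averaged 4503 CPM in atRA+PKCi, to Mmp13, which went from 2299 to 0.527 CPM.

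Ranked by reads rather than by fold, keratin genes led the losses, on a scale that is not corrected for gene length. All genes called lower summed to 546600 CPM in FBS and 275700 in atRA+PKCi, by group means. Those called higher summed to 156400 and 243700 CPM, so the genes named here hold only part of the shift. Totals over all genes tested were not equal under TMM scaling, with 1097000 and 1132000 CPM in FBS and 923100 and 963000 in atRA+PKCi. Losses and gains in CPM therefore need not balance. Krt14, the basal keratin, lost most, with 20520 and 22350 CPM in FBS and 5718 and 5972 in atRA+PKCi (log2 fold change -1.88 ± 0.10). Its partner Krt5 stood at 12330 and 11950 CPM in FBS and 9262 and 9149 in atRA+PKCi (log2 fold change -0.40 ± 0.077), so the pair did not fall alike. Krt6a, Krt16 and Krt6b followed, with group means of 13440 to 1948 CPM, 6756 to 129 CPM and 6306 to 20.9 CPM, and Fabp5, a carrier of fatty acids and retinoic acid, went from 6746 to 2575 CPM. Dsp and Perp of desmosomes, the stefin BC100530 and Mmp13 were the other large losses. Among the gains, Krt15 came first, with a difference of 4499 CPM between the means, and Eef1a1 was close to it, with 4438 CPM. Eef1a1, the elongation factor that brings transfer RNA to the ribosome, stood at 11300 and 13100 CPM in FBS and 16020 and 17260 in atRA+PKCi (log2 fold change 0.45 ± 0.096). Tpm1, a tropomyosin that binds actin filaments, was at 376 and 411 CPM in FBS and 2330 and 2186 in atRA+PKCi (log2 fold change 2.52 ± 0.084). Glul, Eef2, Igfbp3, Ccng1 and Rpl4 were also among the 10 largest gains, though Rpl4 lost its call without atRA+PKCi replicate 2 (log2 fold change 0.34). The mitochondrial transcripts mt-Cytb and mt-Nd5, the remaining members, did not hold their calls without wild-type FBS replicate 1 (0.27 and 0.34).

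Genes known from HFSCs in the bulge rose more often than they fell, but their set was incomplete in both media. Of the HFSC identity list, 12 of the 25 members tested rose and 9 fell, with a median log2 fold change of 0.31. The list was split, since 8 of 12 transcription factors rose and 2 fell (median 0.73). Of 13 surface, secreted and structural genes, 4 rose and 7 fell (median -0.51). Among transcription factors, Barx2 stood at 37.6 and 36.4 CPM in FBS and 103 and 92.4 in atRA+PKCi (log2 fold change 1.41 ± 0.083), and Id2, an inhibitor of helix-loop-helix factors, at 114 and 130 CPM in FBS and 294 and 331 in atRA+PKCi. Sox9, the master regulator of HFSCs, was at 105 and 81.8 CPM in FBS and 173 and 156 in atRA+PKCi (log2 fold change 0.82 ± 0.11). The nuclear factors Nfib and Nfix rose by 0.80 and 0.80, Tcf7l2 by 0.95 and Foxc1 by 0.66. Cd200, a surface protein of bulge cells, had no count in FBS and 3.43 and 4.18 CPM in atRA+PKCi, at least 67.7-fold higher. The WNT inhibitor Sfrp1 stood at 2.88 and 2.32 CPM in FBS and 21.4 and 19.3 in atRA+PKCi, and Npnt, the basement membrane protein on which the arrector muscle attaches, at 0.547 and 0.309 CPM in FBS and 2.85 and 3.52 in atRA+PKCi.

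Other defining bulge genes were near 0 or moved the other way. Cd34, the marker used to purify mouse HFSCs, was at 0.474 and 0.618 CPM in FBS and 0.385 and 0.507 in atRA+PKCi and did not pass (adjusted p = 0.586). Lhx2 had 2 and 0 counts in FBS and 3 and 3 in atRA+PKCi, and Lgr5 had 1 count over all 4 libraries, so neither could be tested. Nfatc1, a factor of quiescence, stood at 6.42 and 4.6 CPM in FBS and 0.834 and 1.49 in atRA+PKCi (log2 fold change -2.24 ± 0.37). Fgf18, a ligand that holds the bulge at rest, was at 2.01 and 2.7 CPM in FBS and 0.257 and 0.285 in atRA+PKCi, Postn at 0.949 and 1.0 CPM in FBS and 0.192 and 0.19 in atRA+PKCi and the BMP antagonist Grem1 at 1.68 and 1.51 CPM in FBS and 0.0641 and 0.19 in atRA+PKCi. Of the 9 HFSC markers used as a check of the labelled cell type (Cd34, Krt15, Lhx2, Sox9, Nfatc1, Tcf7l1, Lgr5, Fgf18 and Postn), Krt15 and Sox9 rose, Nfatc1, Fgf18 and Postn fell, and the other 4 did not pass or could not be tested. Runx1 was called higher (log2 fold change 0.31) but not without FBS replicate 2 (0.19) or without atRA+PKCi replicate 2 (0.32).

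Basal keratinocyte genes fell as a group. In that list of genes shared by basal progenitors of epidermis and follicle, 0 of the 12 members tested rose and 9 fell (median -0.70). Genes for chains of laminin-332, which anchors basal cells, were among them, with Lamb3 at 1053 and 916 CPM in FBS and 209 and 212 in atRA+PKCi and Lama3 at 1406 and 1232 CPM in FBS and 291 and 295 in atRA+PKCi. Trp63, the p63 factor of stratified epithelia, fell from 430 to 299 CPM (log2 fold change -0.53 ± 0.079). The cadherins Cdh1 and Cdh3 did not pass, with log2 fold changes of 0.09 ± 0.098 and 0.23 ± 0.092.

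Members of the retinoid pathway moved in both directions. Over the whole list, 19 of the 44 members tested rose and 12 fell, against the background of 27.2% and 26.6% (median 0.10). Of 14 genes for synthesis, storage and reduction, 3 rose and 6 fell. Dhrs3, which reduces retinal back to retinol, was at 7.88 and 6.53 CPM in FBS and 191 and 183 in atRA+PKCi (log2 fold change 4.69 ± 0.10, adjusted p = 1.1e-08). Stra6, the retinol uptake receptor, stood at 69.2 and 65.5 CPM in FBS and 297 and 253 in atRA+PKCi (log2 fold change 2.03 ± 0.092). Lrat, which stores retinol as esters, was at 0.11 and 0.464 CPM in FBS and 1.8 and 3.8 in atRA+PKCi. Cyp26b1, which breaks retinoic acid down, stood at 27.9 and 21 CPM in FBS and 72.5 and 69.5 in atRA+PKCi (log2 fold change 1.54 ± 0.13), and its relative Cyp26a1 had no count in any of the 4 libraries.

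Aldh1a3, which makes retinoic acid from retinal, was at 56.4 and 68.8 CPM in FBS and 0.641 and 0.38 in atRA+PKCi (log2 fold change -6.93 ± 0.23). Dhrs9, which oxidizes retinol, stood at 20.7 and 22.4 CPM in FBS and 0.0641 and 0.095 in atRA+PKCi. Rdh11, which works in the other direction on retinal, fell as well and was at 168 and 163 CPM in FBS and 44.4 and 42.7 in atRA+PKCi. Among carriers, Rbp2 stood at 48.2 and 53.2 CPM in FBS and 6.13 and 6.18 in atRA+PKCi and Crabp1 at 1.57 and 1.78 CPM in FBS and 0.257 and 0.127 in atRA+PKCi, while Crabp2, which delivers retinoic acid to the receptor, had a log2 fold change of 0.10 ± 0.13 and did not pass. Aldh1a1 was called higher, from 0.316 to 1.15 CPM, but not by DESeq2 (1.83) and not without FBS replicate 2 (1.38), and Rdh10 was called lower (-0.55) but not without either FBS library in turn.

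Receptor transcripts changed by small steps or were at trace level. Rarg and Rxra, whose products form the main heterodimer of keratinocytes, had log2 fold changes of 0.10 ± 0.10 and 0.10 ± 0.091 and did not pass, with Rarg at 123 and 97.3 CPM in FBS and 120 and 116 in atRA+PKCi. Without wild-type FBS replicate 1 both were called higher, at 0.28 and 0.25. Rxrb rose by 0.48 ± 0.077, and Rara was called higher (0.56 ± 0.15) but not without atRA+PKCi replicate 1 (0.48). Rarb, a classic target of its own receptor, had 2 counts over FBS and 15 over atRA+PKCi, which is a 6.37-fold ratio (95% counting interval 1.48 to 57.4) at trace level. Its promoter is shown because it was the only one, among 30 promoters found for the 44 members tested, to hold the retinoic acid response element as 2 half-sites (GGTCA or GTTCA) with 6 bases between them, which 0.222% of 27025 promoters hold on either strand. Capitals mark the repeat, and the bases are the 120 just before the RefSeq start (GRCm38.p6).
Rarb, chr14:16575477-16575596, minus strand: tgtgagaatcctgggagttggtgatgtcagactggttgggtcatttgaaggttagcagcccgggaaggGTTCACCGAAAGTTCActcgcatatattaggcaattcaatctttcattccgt

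Genes known as retinoic acid targets in other cells leaned upward, with 10 higher and 3 lower of 18 tested (median 0.58). Hoxa5 was at 12 and 10.9 CPM in FBS and 64.9 and 59.7 in atRA+PKCi (log2 fold change 2.44 ± 0.086), Meis2, a partner of HOX proteins, at 18.8 and 19.2 CPM in FBS and 98.5 and 101 in atRA+PKCi, and the crosslinking enzyme Tgm2 at 23.1 and 22.3 CPM in FBS and 100 and 88.4 in atRA+PKCi. Nrip1, a corepressor of nuclear receptors, stood at 154 and 136 CPM in FBS and 362 and 385 in atRA+PKCi. Tnip1, a brake on NF-kB, fell from 40 to 15.1 CPM. The plot of retinoid genes by library shows Dhrs3 at its top and Aldh1a3 and Dhrs9 at its foot.

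**Figure D2:**
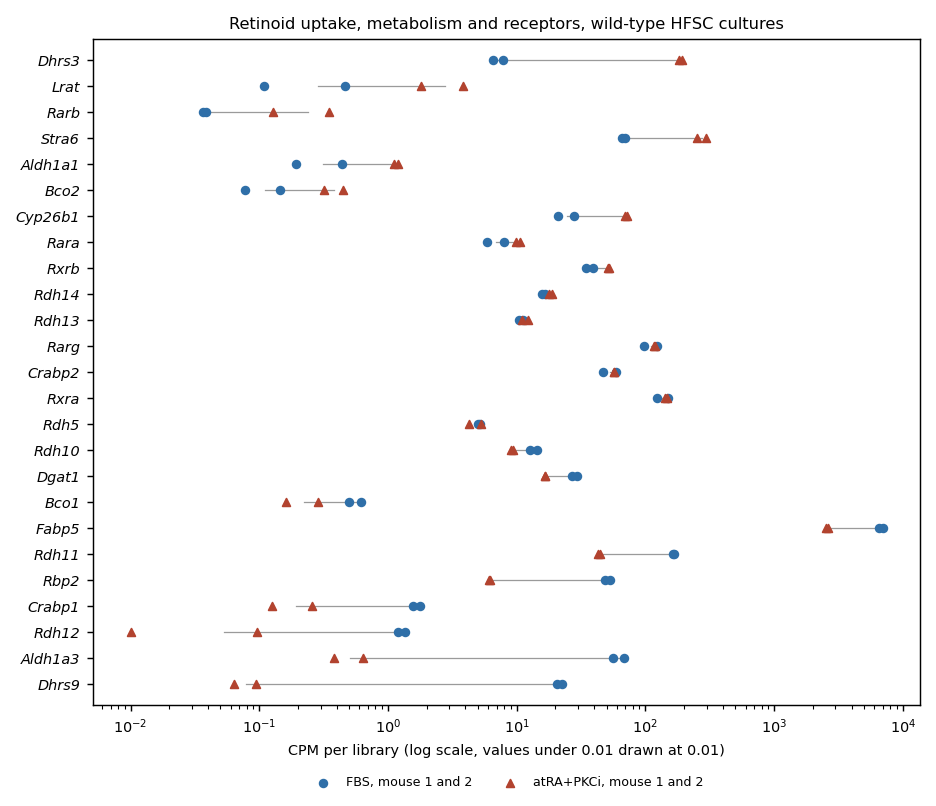
Retinoid receptors, carriers and enzymes, ordered by log2 fold change. The x axis is CPM on a log scale (values under 0.01 drawn at 0.01); blue circles are the 2 FBS libraries, red triangles the 2 atRA+PKCi libraries, and lines join the group means. Dhrs3 and Stra6 lie apart to the right in atRA+PKCi, Aldh1a3 and Dhrs9 to the left, and Rarg and Rxra overlap.

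Wound and hyperproliferation genes fell almost throughout, and 3 of the 28 members tested rose and 24 fell (median -2.32). Krt6b was at 6358 and 6254 CPM in FBS and 20.4 and 21.3 in atRA+PKCi and Krt16 at 6775 and 6738 CPM in FBS and 120 and 139 in atRA+PKCi, whereas Krt6a fell less and was at 13490 and 13390 CPM in FBS and 1966 and 1930 in atRA+PKCi (log2 fold changes -8.24, -5.71 and -2.79). The alarmins S100a8 and S100a9 fell from 1011 to 24.9 CPM and 1645 to 81.6 CPM. The gene of tenascin-C, Tnc, rose against the group, with 100 and 83.3 CPM in FBS and 144 and 151 in atRA+PKCi, and Mmp14, a membrane protease, by 0.35.

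Secreted proteases of 1 gene cluster on chromosome 9 fell to under 1 CPM. Mmp10 stood at 335 and 382 CPM in FBS and 0.641 and 0.222 in atRA+PKCi (log2 fold change -9.69 ± 0.23), and Mmp1a at 4.63 and 6.3 CPM in FBS and 0.128 and 0 in atRA+PKCi. With Mmp3 and Mmp13, these 4 genes were chosen after their values were seen, because a promoter was found for each and all 4 promoters hold an AP-1 site (TGANTCA, read alike on both strands) within 120 bases of the start, as does that of Plaur among the 15 promoters found for the 28 list members. Over all 27025 promoters, 7.93% hold such a site somewhere between 250 bases before and 50 after the start. The 120 bases before each RefSeq start (GRCm38.p6) are given with the site in capitals.
Mmp13, chr9:7272394-7272513, plus strand: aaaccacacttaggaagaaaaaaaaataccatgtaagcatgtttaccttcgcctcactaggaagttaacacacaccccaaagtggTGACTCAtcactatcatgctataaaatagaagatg
Mmp3, chr9:7445702-7445821, plus strand: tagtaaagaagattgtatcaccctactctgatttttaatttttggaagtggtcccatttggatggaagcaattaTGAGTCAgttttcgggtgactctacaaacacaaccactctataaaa
Mmp1a, chr9:7464021-7464140, plus strand: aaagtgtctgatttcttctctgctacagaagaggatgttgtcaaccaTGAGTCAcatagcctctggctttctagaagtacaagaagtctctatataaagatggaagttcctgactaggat
Mmp10, chr9:7502222-7502341, plus strand: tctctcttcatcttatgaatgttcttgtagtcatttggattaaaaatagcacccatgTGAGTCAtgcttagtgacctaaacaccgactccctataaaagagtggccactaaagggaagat
The sites begin 35, 46, 73 and 63 bases before the starts, and that of Mmp13 holds the same 7 letters as the others, read on the opposite strand. Mmp14, outside the cluster, was at 101 and 87.5 CPM in FBS and 121 and 120 in atRA+PKCi. Among genes with a promoter, 7.63% of those called lower held an AP-1 site in the wider window, against 4.62% called higher and 4.72% not called. A promoter was found for only 66.6% of the genes tested (74.1% of those lower, 73.7% higher, 58.1% not called). The shares leave out part of each class, and no test was run on them.

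AP-1 subunits did not fall as one. Of AP-1 and immediate early genes, 7 of the 25 members tested rose and 11 fell (median -0.18). Fosl1, the subunit of migrating keratinocytes, stood at 97.5 and 84.3 CPM in FBS and 17.7 and 16.7 in atRA+PKCi (log2 fold change -2.40 ± 0.091), and Junb fell by 0.982. Fosb was at 66.2 and 46.1 CPM in FBS and 436 and 443 in atRA+PKCi (log2 fold change 2.97 ± 0.17) and Jun at 225 and 193 CPM in FBS and 484 and 459 in atRA+PKCi (log2 fold change 1.17 ± 0.14), both higher in atRA+PKCi. Fos itself was at 405 and 323 CPM in FBS and 378 and 362 in atRA+PKCi and did not pass. Atf3, a stress-induced factor, rose from 135 to 308 CPM. Other early genes fell, such as Ier3 from 683 to 163 CPM and Phlda1 from 236 to 57.2 CPM.

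Most receptors and ligands of the EGF family fell, 8 of the 11 tested, and 2 rose. Of EGFR and ERK genes, 4 of the 26 members tested rose and 16 fell (median -1.09). Areg stood at 167 and 169 CPM in FBS and 13.4 and 13 in atRA+PKCi (log2 fold change -3.67 ± 0.071), Epgn at 139 and 146 CPM in FBS and 11.1 and 11.7 in atRA+PKCi, Hbegf at 250 and 245 CPM in FBS and 39.2 and 43 in atRA+PKCi, Ereg at 166 and 149 CPM in FBS and 25.8 and 27.6 in atRA+PKCi and Tgfa at 216 and 186 CPM in FBS and 59.1 and 57.4 in atRA+PKCi. None of the 5 overlapped between media. Egf itself was at trace level and went the other way, with 0.182 and 0.309 CPM in FBS and 0.609 and 0.982 in atRA+PKCi (log2 fold change 1.69 ± 0.47), but was not called by DESeq2, without FBS replicate 1 or without atRA+PKCi replicate 2. Transcripts of the receptor were not lower: Egfr was at 58 and 52.3 CPM in FBS and 74.3 and 77.3 in atRA+PKCi and was called higher in the counts (log2 fold change 0.46 ± 0.076), but was at 0.09 and not called in the authors' normalized table. Feedback genes of ERK signaling were lower in part, with Dusp5 at 114 and 111 CPM in FBS and 13.3 and 15.4 in atRA+PKCi and Dusp4 at 42.1 and 37.2 CPM in FBS and 9.21 and 9.31 in atRA+PKCi, whereas Dusp6 did not pass (0.06 ± 0.070). Ccnd1, the cyclin of G1, stood at 246 and 247 CPM in FBS and 468 and 459 in atRA+PKCi and rose by 0.91 ± 0.080. Lrig3 rose from 1.35 to 8.24 CPM. Among PKC genes 5 rose and 4 fell of 15 tested (median 0.06). Prkca, which encodes a calcium-dependent isoform, was at 36.8 and 34.2 CPM in FBS and 14.9 and 13.7 in atRA+PKCi, and Prkci, an atypical isoform, at 68.9 and 62.4 CPM in FBS and 99.2 and 101 in atRA+PKCi. Prkcb was too low to test.

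Cytokine genes were lower in atRA+PKCi almost throughout. In the list of cytokines and NF-kB genes, 3 of the 40 members tested rose and 30 fell (median -1.74), and of 16 cytokines 14 fell. Il1a, an alarm signal stored in keratinocytes, stood at 509 and 540 CPM in FBS and 61.1 and 61.7 in atRA+PKCi (log2 fold change -3.09 ± 0.077), Il24 at 205 and 233 CPM in FBS and 4.84 and 2.66 in atRA+PKCi and Il1f9, an IL-36 gene, at 217 and 226 CPM in FBS and 5.29 and 6.65 in atRA+PKCi. Tslp, a trigger of allergic inflammation, was at 17 and 13.7 CPM in FBS and 0.802 and 0.475 in atRA+PKCi and Tnf at 7.48 and 6.3 CPM in FBS and 0.513 and 0.507 in atRA+PKCi. Csf1, the growth factor of macrophages, was the exception, with 4.67 and 4.37 CPM in FBS and 9.46 and 7.76 in atRA+PKCi, and Lif did not pass. Of 10 chemokines 9 fell, among them Cxcl1 at 449 and 462 CPM in FBS and 90.9 and 100 in atRA+PKCi and Cxcl3 at 83.8 and 83.9 CPM in FBS and 4.39 and 4.62 in atRA+PKCi. Of 14 genes of NF-kB subunits and feedback, 7 fell and 2 rose. The inhibitors Tnfaip3 and Nfkbia fell, from 105 to 31.4 CPM and from 361 to 134 CPM, and Cyld, another inhibitor, and Nfkbiz rose, by 0.51 and 0.44 on the log2 scale.

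**Figure D3:**
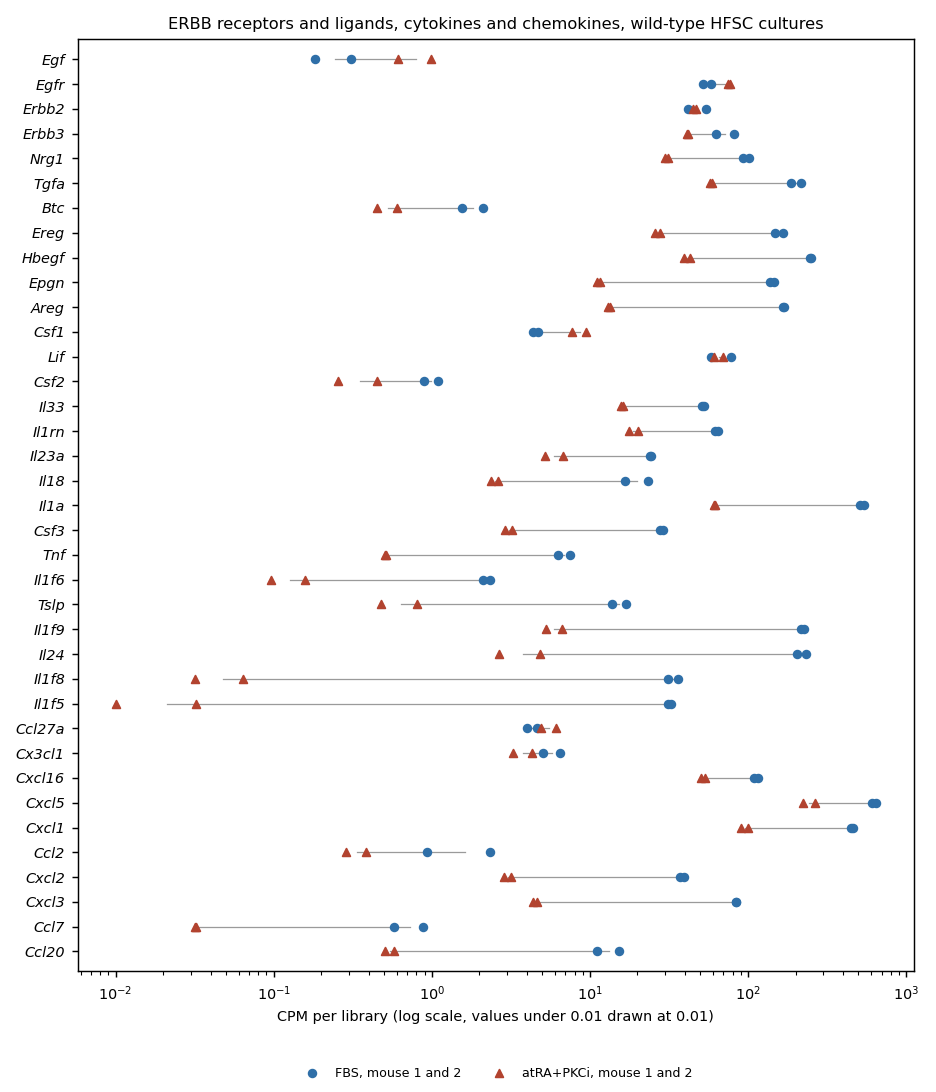
ERBB receptors and their ligands, then cytokines, then chemokines, each ordered by log2 fold change. The x axis is CPM on a log scale (values under 0.01 drawn at 0.01); blue circles are the 2 FBS libraries, red triangles the 2 atRA+PKCi libraries, and lines join the group means. Egf, Egfr and Csf1 lie to the right in atRA+PKCi, Erbb2 and Lif overlap, and most ligands lie to the left, as Areg does.

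Interferon-stimulated genes went the other way from the cytokines. Of 33 tested, 19 rose and 3 fell (median 0.94, or 0.91 with genes at 0 counts in a group set to a floor of 3 counts), though several were under 1 CPM. Usp18, which damps the interferon receptor, had 2 counts over FBS and reached 6.06 and 7.22 CPM in atRA+PKCi, 177 times the FBS level (95% counting interval 48.7 to 1470). Ifitm3, a restriction factor of viral entry, stood at 99.9 and 103 CPM in FBS and 232 and 217 in atRA+PKCi and Ifi35 at 10.3 and 9.5 CPM in FBS and 28.6 and 29.6 in atRA+PKCi. Isg20 fell from 135 to 64 CPM, and Isg15 did not pass. In antigen presentation, the peptide transporter Tap1 was at 4.12 and 3.94 CPM in FBS and 25.4 and 27.2 in atRA+PKCi (log2 fold change 2.70 ± 0.12), while the class I genes H2-K1 and H2-D1 fell by 0.92 and 0.729.

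Enzymes of cholesterol synthesis were lower at nearly every step. Of 20 enzymes tested, 19 fell and 0 rose (median -0.83). Hsd17b7 stood at 130 and 120 CPM in FBS and 39.3 and 38.4 in atRA+PKCi (log2 fold change -1.69 ± 0.071), Pmvk at 43.1 and 43.2 CPM in FBS and 16 and 13.2 in atRA+PKCi, Dhcr7 at 77.6 and 63 CPM in FBS and 27.8 and 25.5 in atRA+PKCi and Fdps at 391 and 390 CPM in FBS and 169 and 157 in atRA+PKCi. Sqle, a step known for its control by sterols, fell less and was at 394 and 353 CPM in FBS and 297 and 290 in atRA+PKCi (log2 fold change -0.35 ± 0.073). Cholesterol export was split, since Abca1 stood at 4.31 and 2.98 CPM in FBS and 24.4 and 24.5 in atRA+PKCi (log2 fold change 2.74 ± 0.22) and Abcg1 at 14.3 and 13.1 CPM in FBS and 0.16 and 0.253 in atRA+PKCi (log2 fold change -6.02 ± 0.28). Mylip, which marks the LDL receptor for breakdown, rose from 10.3 to 30.8 CPM. The atRA+PKCi medium also held cholesterol, whose part in these values was not tested.

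Synthesis and storage of fatty acids fell in part, with 1 higher and 16 lower of 30 tested (median -0.68). Of 17 genes of synthesis and desaturation 1 rose and 7 fell (median -0.1). Of 13 for lipid droplets and triglyceride 0 rose and 9 fell (median -0.86). Dgat2, which closes triglycerides, was at 55.6 and 52.9 CPM in FBS and 4.75 and 4.5 in atRA+PKCi, the elongase Elovl7 at 27.9 and 27.2 CPM in FBS and 5.42 and 4.62 in atRA+PKCi and Me1, a source of NADPH, at 164 and 156 CPM in FBS and 45.5 and 44.8 in atRA+PKCi. Scd1, Scd2 and Fasn did not pass. Oxidation genes leaned upward, with 9 higher and 2 lower of 17 (median 0.20). Cpt1a, the gate for fatty acids into mitochondria, stood at 24.9 and 21.7 CPM in FBS and 93.4 and 85.2 in atRA+PKCi (log2 fold change 1.94 ± 0.094). Ucp2, an inner membrane carrier, was at 5.66 and 3.63 CPM in FBS and 98.1 and 83.8 in atRA+PKCi (log2 fold change 4.29 ± 0.16), and Ppargc1a, the coactivator PGC-1a, went from 0 counts in FBS to 2.6 and 3.39 CPM, at least 53.2-fold higher. Ppard fell from 207 to 66.9 CPM and Fabp4 from 366 to 10.3 CPM.

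Most genes of the respiratory chain did not pass, and those that fell did so by small steps. Of nuclear genes for oxidative phosphorylation, 1 of the 58 members tested rose and 22 fell (median -0.16), with 5 lower of 28 in complex I and 17 of 30 in the other complexes, and no fall went beyond 0.673 on the log2 scale, that of Uqcrq (161 and 206 CPM in FBS and 115 and 115 in atRA+PKCi). Among hypoxia targets outside glycolysis, 2 of the 23 members tested rose and 15 fell (median -0.71). Egln3, an oxygen sensor that HIF induces, stood at 1136 and 1107 CPM in FBS and 437 and 458 in atRA+PKCi (log2 fold change -1.33 ± 0.11), Bnip3 at 668 and 726 CPM in FBS and 289 and 298 in atRA+PKCi and Hif1a, the sensor's target, at 1406 and 1271 CPM in FBS and 712 and 797 in atRA+PKCi.

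Antioxidant genes split within 1 pathway. Of the NRF2 list, 13 of the 37 members tested rose and 16 fell (median -0.16). Hmox1, which degrades heme, was at 246 and 287 CPM in FBS and 40.2 and 38.5 in atRA+PKCi (log2 fold change -2.76 ± 0.10), and the cystine carrier Slc7a11 at 282 and 239 CPM in FBS and 43.6 and 60.7 in atRA+PKCi. The subunits of the enzyme that starts glutathione synthesis parted: catalytic Gclc stood at 132 and 121 CPM in FBS and 262 and 262 in atRA+PKCi (log2 fold change 1.05 ± 0.080) and modifier Gclm at 119 and 119 CPM in FBS and 31.2 and 31.1 in atRA+PKCi (log2 fold change -1.94 ± 0.092). Mgst1 rose from 5.79 to 43.6 CPM, while the transferases Gsta1 and Gsta4 fell from 166 to 1.97 CPM and 1955 to 339 CPM. Selenoproteins and metallothioneins together gave 7 higher and 8 lower of 20, and the selenoenzyme gene Gpx1 was at 804 and 896 CPM in FBS and 311 and 318 in atRA+PKCi. The metallothionein genes Mt1 and Mt2, whose products bind zinc and copper, fell together, with Mt1 at 348 and 392 CPM in FBS and 98 and 84.8 in atRA+PKCi and Mt2 at 481 and 543 CPM in FBS and 50.6 and 41.2 in atRA+PKCi (log2 fold changes -2.02 ± 0.10 and -3.48 ± 0.13).

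Proliferation genes changed little. Of 37 replication genes tested, 8 rose and 10 fell (median 0.05), and of 35 mitotic genes 5 rose and 13 fell (median -0.20). Mki67, present in all cycling cells, stood at 208 and 177 CPM in FBS and 213 and 193 in atRA+PKCi and did not pass (adjusted p = 0.529). Rrm2, a subunit of ribonucleotide reductase, fell from 129 to 70 CPM and Mcm7, of the replicative helicase, rose from 58.4 to 88.7 CPM. Targets of p53 were mostly higher, 14 of 20, with 4 lower (median 0.69). Their summed level was not higher, at 5022 and 5203 CPM in FBS and 4381 and 4753 in atRA+PKCi. Perp, also a desmosome gene, was among those lower and went from a mean of 3490 to 1088 CPM. Ccng1 was at 296 and 332 CPM in FBS and 1029 and 1172 in atRA+PKCi (log2 fold change 1.81 ± 0.093), Trp53inp1 at 83.2 and 82.2 CPM in FBS and 498 and 552 in atRA+PKCi, Sesn1 at 30.9 and 33.1 CPM in FBS and 165 and 173 in atRA+PKCi and Eda2r, a death receptor, at 4.45 and 3.71 CPM in FBS and 68.3 and 79.3 in atRA+PKCi. Cdkn1a, the p21 inhibitor that p53 induces, did not rise with them and stood at 392 and 371 CPM in FBS and 327 and 313 in atRA+PKCi (log2 fold change -0.25 ± 0.072), a fall whose call was lost without FBS replicate 1, without atRA+PKCi replicate 2 and in the authors' normalized table. Cdkn1c, the p57 inhibitor, was at 5.22 and 6.57 CPM in FBS and 33 and 30.4 in atRA+PKCi (log2 fold change 2.43 ± 0.12).

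Translation genes moved apart from stress genes of the endoplasmic reticulum. Of ribosome biogenesis genes, 17 of the 30 members tested rose and 2 fell (median 0.25), with Utp20 at 38.8 and 30.9 CPM in FBS and 70.4 and 69.3 in atRA+PKCi as the largest rise. Cytoplasmic ribosomal protein genes mostly did not pass, with 12 higher and 3 lower of 88 (median 0.18). In the amino acid and ATF4 list, 5 of the 47 members tested rose and 30 fell (median -0.35). The chaperone Hspa5 stood at 613 and 604 CPM in FBS and 270 and 278 in atRA+PKCi (log2 fold change -1.15 ± 0.069) and Xbp1, a factor of the unfolded protein response, at 100 and 102 CPM in FBS and 37.7 and 38.4 in atRA+PKCi. Slc1a4, a carrier of neutral amino acids, stood against them at 11.8 and 10.5 CPM in FBS and 46.3 and 47 in atRA+PKCi (log2 fold change 2.07 ± 0.086). Heat shock genes had a median of 0.01, and Cryab, a small chaperone, was at 182 and 235 CPM in FBS and 9.11 and 8.71 in atRA+PKCi.

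Subunits of the proteasome and of the lysosomal proton pump were lower in a near-complete set. Of 37 proteasome genes, 30 fell and 1 rose (median -0.37), with Psmd14 at 156 and 175 CPM in FBS and 92.8 and 101 in atRA+PKCi. Of 19 genes of the pump that acidifies lysosomes, 15 fell and 0 rose (median -0.77), with Atp6v0a1 at 50.5 and 42.5 CPM in FBS and 15.5 and 14.7 in atRA+PKCi. In lysosomes and autophagy, 7 of the 37 members tested rose and 18 fell (median -0.19). Against the list, Gabarapl1, a tag of autophagosomes, was at 31.3 and 31.3 CPM in FBS and 171 and 162 in atRA+PKCi (log2 fold change 2.41 ± 0.065) and Atg9b at 76.4 and 71.1 CPM in FBS and 253 and 239 in atRA+PKCi.

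**Figure D4:**
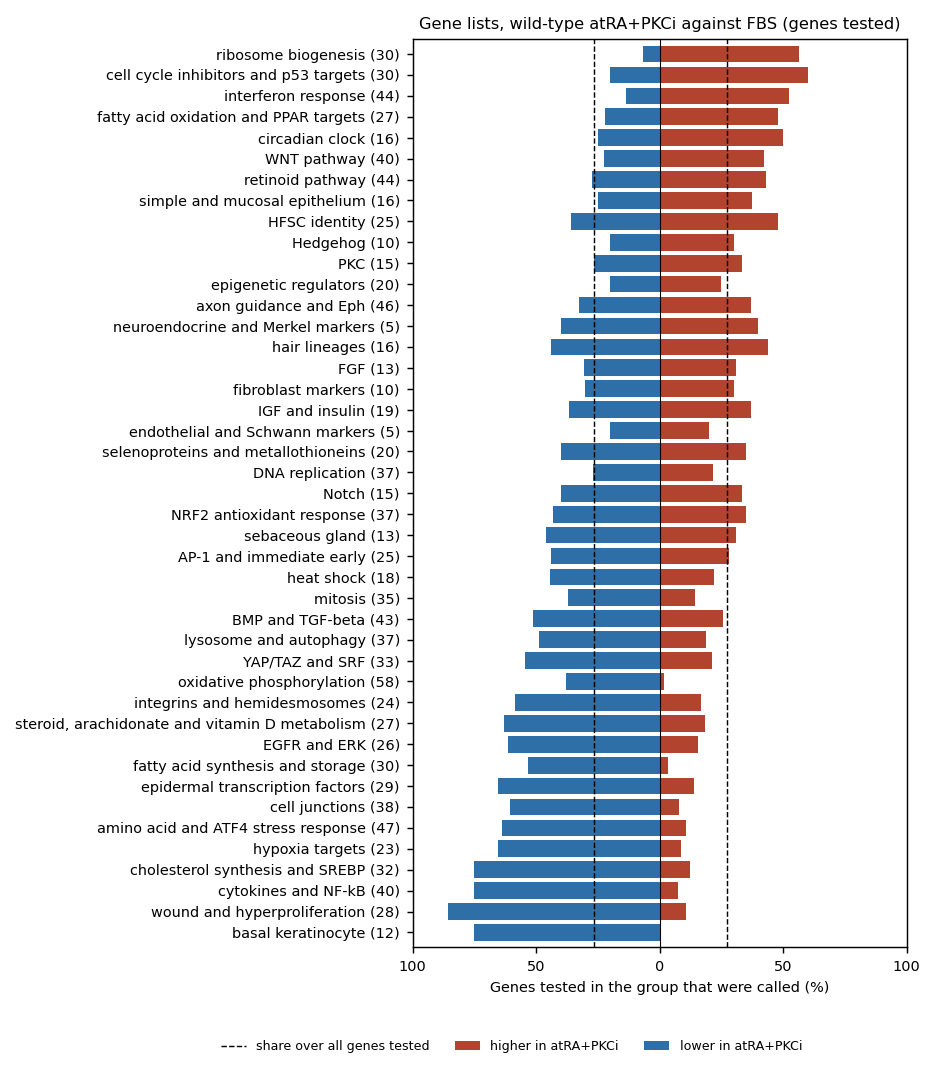
Share of the genes tested in each fixed list with 5 or more genes tested that rose (red, to the right) or fell (blue, to the left); the number tested is in brackets. The x axis is in percent and the dashed lines mark the shares over all genes tested, 27.2% and 26.6%. Ribosome biogenesis, cell cycle inhibitors with p53 targets, and the interferon response lie at the top, and wound, cytokine, cholesterol and basal keratinocyte genes at the foot.

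In the WNT pathway, ligands mostly fell and nuclear factors were called only upward. Of 11 ligands tested 2 rose and 7 fell, of 18 receptors and inhibitors 9 rose and 2 fell, and of 11 targets and nuclear factors 6 rose and 0 fell. Wnt7a stood at 21.8 and 23.1 CPM in FBS and 3.05 and 2.44 in atRA+PKCi and Wnt3a at 16.1 and 14.2 CPM in FBS and 1.22 and 1.65 in atRA+PKCi, whereas Wnt6 was at 3.5 and 3.21 CPM in FBS and 11.1 and 12.8 in atRA+PKCi. Lgr4, a receptor of R-spondins, stood at 29.5 and 24.7 CPM in FBS and 191 and 178 in atRA+PKCi (log2 fold change 2.77 ± 0.094), and its relative Lgr6 at 5.77 and 5.25 CPM in FBS and 53 and 47.4 in atRA+PKCi. Ctnnb1, which encodes beta-catenin, was at 595 and 558 CPM in FBS and 1146 and 1150 in atRA+PKCi (log2 fold change 0.99 ± 0.069), and Notum, a secreted inhibitor that WNT signaling induces, at 0.949 and 0.695 CPM in FBS and 10.6 and 9.95 in atRA+PKCi. Axin2, the common readout of the pathway, was at 6.13 and 4.91 CPM in FBS and 5.45 and 5.45 in atRA+PKCi and did not pass.

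The BMP and TGF-beta list leaned down, with 11 higher and 22 lower of 43 (median -0.45). Tgfbi, which TGF-beta induces, stood at 1018 and 988 CPM in FBS and 223 and 229 in atRA+PKCi, and the ligands parted, with Tgfb2 at 13.5 and 12.3 CPM in FBS and 1.54 and 1.71 in atRA+PKCi and Tgfb3 at 2.77 and 2.82 CPM in FBS and 27.6 and 23.2 in atRA+PKCi. Thbs1, whose product activates latent TGF-beta, was at 87.8 and 76.8 CPM in FBS and 462 and 450 in atRA+PKCi (log2 fold change 2.47 ± 0.089). On the BMP side, Id4 rose from 2.54 to 15.2 CPM, Bmp7 from 4.91 to 16.1 CPM, and Bmp6 fell from 5.18 to 0.526 CPM. In the Notch list 5 rose and 6 fell of 15 (median -0.24), and the receptor gene Notch1 stood at 184 and 113 CPM in FBS and 476 and 526 in atRA+PKCi (log2 fold change 1.76 ± 0.19) while its ligand Jag1 was at 658 and 536 CPM in FBS and 336 and 353 in atRA+PKCi (log2 fold change -0.79 ± 0.099).

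Of Hedgehog genes, 3 rose and 2 fell of 10 tested (median 0.02), and Gas1, a coreceptor known from the hair germ, stood at 18.9 and 18.4 CPM in FBS and 82.3 and 86.8 in atRA+PKCi. In the FGF list 4 rose and 4 fell of 13 (median 0.24), with Fgf1 at 1.68 and 1.97 CPM in FBS and 42.3 and 43.5 in atRA+PKCi (log2 fold change 4.55 ± 0.11) and Fgfbp1, which frees FGFs from the matrix, at 490 and 570 CPM in FBS and 176 and 193 in atRA+PKCi. Among IGF and insulin genes 7 rose and 7 fell of 19 (median -0.18). Hmga2, a chromatin protein of growing progenitors, was at 258 and 259 CPM in FBS and 47.5 and 44.3 in atRA+PKCi (log2 fold change -2.49 ± 0.085) and Igfbp3, which binds IGFs outside the cell, at 855 and 749 CPM in FBS and 1743 and 1634 in atRA+PKCi.

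Genes of cell contacts mostly fell. Of junction genes, 3 of the 38 members tested rose and 23 fell (median -0.72). The desmosome genes of differentiating layers were nearly lost, with Dsc1 at 212 and 173 CPM in FBS and 0.289 and 0.0317 in atRA+PKCi and Dsg1a at 172 and 139 CPM in FBS and 0.321 and 0.412 in atRA+PKCi, whereas basal Dsg3 stood at 871 and 761 CPM in FBS and 571 and 550 in atRA+PKCi. Dsg1a has near-identical neighbors, and its share of their reads is uncertain. Gjb2, the connexin of activated epidermis, was at 324 and 297 CPM in FBS and 0.353 and 0.729 in atRA+PKCi (log2 fold change -9.15 ± 0.21), while Gja1, connexin 43, had a log2 fold change of 0.00 ± 0.091 and did not pass. Ocln, the occludin gene, rose, with 5.0 and 4.98 CPM in FBS and 20.4 and 19.9 in atRA+PKCi, as did the claudin gene Cldn8, with 4.93 and 3.9 CPM in FBS and 28.3 and 29.1 in atRA+PKCi. Among integrins 9 fell and 1 rose of 12 tested, and Itga2, the collagen receptor, stood at 118 and 109 CPM in FBS and 5.26 and 4.4 in atRA+PKCi (log2 fold change -4.55 ± 0.10). The riser was Itgb8, known to activate TGF-beta, with 3 counts over FBS against 7.89 and 8.24 CPM in atRA+PKCi, 143 times as much (95% counting interval 48.7 to 697).

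Targets of YAP and SRF, which report tension and actin, gave 7 higher and 18 lower of 33 (median -0.59, or -0.51 with zeros at the floor). Of YAP targets alone 5 rose and 9 fell of 17 (median -0.38). Among the risers were Ctgf at 16.5 and 16.2 CPM in FBS and 47.5 and 46 in atRA+PKCi and Cyr61 at 49.8 and 40.7 CPM in FBS and 88.3 and 93.2 in atRA+PKCi, and among the fallers Nt5e at 188 and 183 CPM in FBS and 45.5 and 46 in atRA+PKCi and Crim1 at 232 and 175 CPM in FBS and 52.1 and 65.4 in atRA+PKCi. Actb, cytoplasmic actin, fell from 1990 to 980 CPM (log2 fold change -1.02 ± 0.085), so it is not a stable reference between these media. The kinase inhibitor Y-27632, known to relax actin tension, was in the serum medium as well as the serum-free one, per the study's methods. Its part in these values was not tested. Guidance molecules changed in both directions, 17 higher and 15 lower of 46. Sema3d stood at 0.84 and 0.386 CPM in FBS and 14.6 and 14.2 in atRA+PKCi and Robo3 at 0.547 and 0.927 CPM in FBS and 12.8 and 11.9 in atRA+PKCi, against Sema6d at 40.1 and 35.1 CPM in FBS and 2.73 and 3.48 in atRA+PKCi and the ephrin Efnb1 at 397 and 316 CPM in FBS and 97.1 and 90.6 in atRA+PKCi.

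Epidermal transcription factors mostly fell, 19 of 29 with 4 higher (median -1.0, or -0.82 with zeros at the floor). Hopx was at 317 and 365 CPM in FBS and 2.18 and 2.34 in atRA+PKCi (log2 fold change -7.23 ± 0.17), Prdm1, of committed sebaceous and granular cells, at 61.6 and 61 CPM in FBS and 1.7 and 1.68 in atRA+PKCi, and Grhl1, a grainyhead factor, at 102 and 97.2 CPM in FBS and 12 and 13.9 in atRA+PKCi. Grhl2, the grainyhead member that holds epithelial identity, did not pass (-0.17 ± 0.084). Ehf, an ETS factor of epithelia, rose, with 65.4 and 69.1 CPM in FBS and 163 and 164 in atRA+PKCi. Lower too were most Krueppel-like factors, 9 of 14, with Klf4 at 284 and 250 CPM in FBS and 93.3 and 87.5 in atRA+PKCi and Klf12 at 5.84 and 5.21 CPM in FBS and 0.834 and 0.887 in atRA+PKCi.

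HOX genes and zinc finger genes rose as families. Of 22 Hox genes 17 rose and 3 fell (median 1.33). Hoxc8 stood at 1.68 and 0.966 CPM in FBS and 48.1 and 49.3 in atRA+PKCi (log2 fold change 5.19 ± 0.16) and Hoxc5 at 7.3 and 6.92 CPM in FBS and 54.9 and 54.5 in atRA+PKCi, and Hoxb9 fell, with 19.4 and 17.6 CPM in FBS and 6.99 and 6.91 in atRA+PKCi. Neighbors in a Hox cluster overlap in their transcripts, and the strand of the library is not given in the sources used here, so reads of a gene and of an antisense neighbor cannot be told apart. Among Zfp genes, most of them repressors with KRAB and zinc finger domains, 195 of 349 rose and 21 fell (median 0.52). Zfp599 was at 2.08 and 2.94 CPM in FBS and 14.8 and 14.6 in atRA+PKCi, Zfp438 at 0.365 and 0 CPM in FBS and 4.27 and 2.28 in atRA+PKCi, and Zfp36, which is an RNA-binding protein and no such repressor, at 198 and 163 CPM in FBS and 77.8 and 74.9 in atRA+PKCi.

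Noncoding annotation classes leaned the same way. Of 270 long intergenic noncoding RNAs 106 rose and 34 fell (median 0.63), of 257 antisense genes 89 rose and 25 fell (median 0.75), and of 200 processed transcripts 90 rose and 18 fell (median 0.81), against 3813 and 3981 of 12972 protein coding genes (median 0.01). Without the strand, reads of an antisense gene and of its partner cannot be told apart. Processed pseudogenes, 1400 in all, had a median of -0.02, with 50 higher and 81 lower. H19 and Igf2, imprinted neighbors, were called higher, from 3.15 to 7.37 CPM and from 3.53 to 6.71 CPM, but neither was called by limma on the authors' normalized table.

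**Figure D5:**
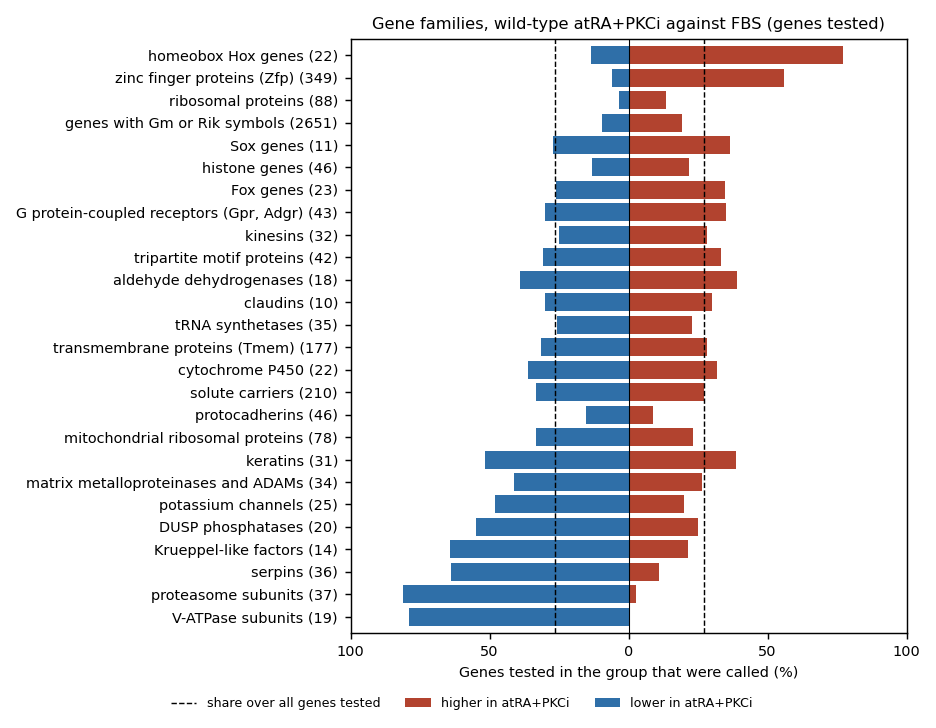
Share of the genes tested in each symbol family shown that rose (red, to the right) or fell (blue, to the left); the number tested is in brackets. The x axis is in percent and the dashed lines mark 27.2% and 26.6%. Hox and Zfp genes stand at the top, and proteasome and V-ATPase subunits, with 30 of 37 and 15 of 19 lower, at the foot.

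Clock genes changed in part. Of 16 clock genes 8 rose and 4 fell (median 0.46, but -0.02 by limma on the authors' normalized table). Dbp stood at 8.25 and 9.77 CPM in FBS and 37.1 and 37.5 in atRA+PKCi, Tef at 25.4 and 22.8 CPM in FBS and 84.5 and 91.4 in atRA+PKCi, both outputs of the clock, and Bhlhe41, a repressor in it, at 15.4 and 12.6 CPM in FBS and 170 and 161 in atRA+PKCi (log2 fold change 3.56 ± 0.099). Per2, a core repressor, was at 1.39 and 0.58 CPM in FBS and 6.03 and 6.97 in atRA+PKCi. Arntl, a core activator, stood at 47.2 and 44.3 CPM in FBS and 30.4 and 30.5 in atRA+PKCi (log2 fold change -0.59 ± 0.067). The time of harvest is not given in the sources used here, and its part was not tested. Among DNA methylation and Polycomb genes 5 rose and 4 fell of 20. Tet1, which oxidizes methylcytosine, was at 0.803 and 0.309 CPM in FBS and 4.68 and 5.51 in atRA+PKCi (log2 fold change 3.18 ± 0.42) and Jarid2, a cofactor of PRC2, at 131 and 115 CPM in FBS and 42.3 and 44.4 in atRA+PKCi.

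Lipid mediators and steroid genes leaned down, with 5 higher and 17 lower of 27 (median -1.09). Ptgs2, the inducible enzyme of prostaglandin synthesis, stood at 542 and 472 CPM in FBS and 63.4 and 70.8 in atRA+PKCi (log2 fold change -2.92 ± 0.11), and Alox12b, a lipoxygenase of the barrier, had 2 counts over atRA+PKCi against 75.4 and 68.1 CPM in FBS. Ptger4, a receptor of prostaglandin E2, rose from 1.54 to 9.63 CPM, and the glucocorticoid receptor gene Nr3c1 from 59.3 to 119 CPM. Serpin genes mostly fell, 23 of 36 with 4 higher, and Serpine2 stood against them at 5.88 and 5.79 CPM in FBS and 42.2 and 41.9 in atRA+PKCi. Tmem176a and Tmem176b, neighbors on chromosome 6, rose from 7.56 to 134 CPM and 12.8 to 208 CPM.

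Markers of other lineages and cell types were examined beside these groups. In the list of simple and mucosal epithelium, 6 of the 16 members tested rose and 4 fell. Krt7 was at 0.474 and 1.0 CPM in FBS and 13.1 and 11.2 in atRA+PKCi. Krt23 fell, with 15.7 and 20.2 CPM in FBS and 0.0962 and 0.127 in atRA+PKCi. Krt19, which also marks bulge cells, stood at 0.402 and 0.348 CPM in FBS and 7.73 and 5.39 in atRA+PKCi. The sebaceous list gave 4 higher and 6 lower of 13, with Mc5r, Awat1 and Awat2 among 5 members too low to test. For the hair shaft and root sheath, 7 rose and 7 fell of 16, and 14 members, Lef1 and Shh among them, were too low to test. Krt32, a hair cuticle keratin, rose, with 0.182 and 0.0773 CPM in FBS and 6.22 and 6.43 in atRA+PKCi. Tchh fell from a mean of 83 to 13.4 CPM and Krt75 from 3.98 to 0.144 CPM. Summed over the members tested, the level was 370 and 323 CPM in FBS and 241 and 226 in atRA+PKCi. Twist2, a mesenchymal factor, stood at 2.44 and 2.51 CPM in FBS and 6.86 and 6.53 in atRA+PKCi and Pdgfra at 5.44 and 4.91 CPM in FBS and 0.706 and 0.665 in atRA+PKCi, but the fibroblast collagens Col1a1, Col1a2 and Col3a1 were at group means of 2.12, 0.875 and 0.936 CPM in FBS and 1.09, 0.492 and 0.555 CPM in atRA+PKCi and did not pass. Summed over the 10 fibroblast markers tested, the level was 19.6 and 15 CPM in FBS and 15.6 and 17.9 in atRA+PKCi, and Lum, Dpt and Fap were among 6 markers not tested. The melanocyte markers tested summed to 6.06 and 5.37 CPM in FBS and 3.66 and 4.02 in atRA+PKCi, with Dct, Tyr, Mlana and Sox10 not tested, and immune markers to 1.28 and 1.39 CPM in FBS and 0.449 and 0.348 in atRA+PKCi, with 9 of 11 not tested, Ptprc included. Of endothelial and Schwann markers, 5 could be tested and summed to 37.2 and 32.8 CPM in FBS and 37.8 and 34.3 in atRA+PKCi. Mbp made up most of these sums, with group means of 31.3 CPM in FBS and 32.5 CPM in atRA+PKCi. The Merkel cell list summed to 34.9 and 40.1 CPM in FBS and 45.6 and 43 in atRA+PKCi, mostly Krt18, and Atoh1 was not tested. Lum, Tyr, Kit, Emcn, Cd3e and Atoh1, markers of fibroblasts, melanocytes, endothelium, T cells and Merkel cells, had no count in any of the 4 libraries. Other untested markers had a few counts, such as Tyrp1 with 0 and 0 in FBS and 6 and 1 in atRA+PKCi. Piezo2 had 6 and 7 counts in FBS and 3 and 5 in atRA+PKCi. The part of such cells in the results was not tested.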

How the data were processed

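Per the labels and the study's methods, the authors quantified RNA-seq reads of 3D HFSC cultures with Salmon 1.4.0 and summed transcripts to gene symbols (mm10). The authors deposited estimated counts for 8 libraries, which are not whole numbers, and a second table of normalized values (a signal per gene and library, scaled by the authors). The library kit and its strand are not given in the sources used here. Single-cell and chromatin files were not used here.

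Estimated counts were rounded, filtered with filterByExpr (15965 of 51906 symbols) and scaled by TMM, and 1 edgeR 4.0.16 quasi-likelihood model (R 4.3.3) was fitted to the 4 groups of genotype and medium, with 4 residual degrees of freedom. The contrast was wild-type atRA+PKCi against wild-type FBS, with Benjamini-Hochberg adjusted p under 0.05 over all genes tested, and the standard error of a log2 fold change was its size divided by the square root of F. The difference between the responses of wild-type and Rxra cKO cultures was tested as an interaction. The 4 wild-type libraries held 28796500 to 30415200 counts each. Where a group had 0 to 3 counts in all, a fold was bounded at a floor of 3 counts over the group or given with an exact 95% binomial interval, and both cover counting error only. Nothing says that cultures of a mouse were independent beyond the mouse, so p-values measure the spread between these libraries. The scripts were tested on simulated counts.

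The labels tie the FBS and atRA+PKCi cultures of 1 number to the same mouse, so the numbers pair them. Deviations of same-numbered libraries from their group means had a correlation of 0.0668, and the fit with the replicate block was an alternative. Others were RLE size factors, DESeq2 1.42.0, other filters, each library left out, only the 4 wild-type libraries, a stricter threshold, and limma 3.58.1 on log2 of the authors' normalized table plus 1 or 0.5.

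Genes were named by rule: the 12 largest changes each way with at least 20 CPM in the higher group and no overlap, the 10 largest gains and losses in CPM, in each of 45 lists the 4 largest changes each way with at least 2 CPM and the 2 most abundant members, all members of the retinoid, HFSC and cell type marker lists, and the 3 largest changes each way in each of 27 families of symbols. A further 33 genes were chosen after their values were seen, among them Trp63, S100a8, Ereg, Tgfa, Cxcl1, Sqle, Gclm, Cdkn1a, Hspa5, Wnt6 and Actb. Some genes are not reported here. The comparison and the lists were chosen with earlier results of these data known. Medians of lists set genes at 0 counts to the same floor where a second value is given. Gene positions are GENCODE M21 (GRCm38), and promoters are from RefSeq (GRCm38.p6).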

Additional observations from a re-analysis of the deposited data

Results flagged for a closer look

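The 24 genes with the largest changes were tested for a difference between the response of wild-type cultures and that of cultures labelled Rxra cKO, in the edgeR fit with an interaction term. The difference passed for 24 of 24 at an adjusted p under 0.05 (24.6% of all genes tested passed). The genes were chosen by the size of the wild-type change, which is one side of this difference, so neither the count nor the direction is independent of that choice, and nothing is read from either. The interaction is the wild-type log2 fold change minus that of the knockout cultures. Among genes that rose it was 9.0 for Prr5l, 6.7 for Calcb, 5.84 for Btn1a1, 5.81 for Ngfr, 5.0 for Krt15, 4.8 for Krt13, 3.91 for Clca3a2, 3.9 for Cp, 3.15 for B4galt6, 2.69 for Coq8a, 2.4 for Ltbp2 and 2.29 for Glul. Among genes that fell it was -9.93 for Lce1a2, -9.83 for Lce1a1, -9.55 for Gm5416, -8.94 for 2210017I01Rik, -8.58 for Lce1b, -7.76 for Wfdc5, -7.58 for Klk5, -7.07 for Lce3e, -5.74 for Lce3b, -5.67 for Lce3d, -5.6 for Mmp3 and -5.57 for Mmp13. Every sign is that of the wild-type change. Values of genes with 0 counts in a group depend on the prior count and are no bounds. Krt15, for example, rose by 5.07 on the log2 scale in the knockout cultures, from 7.37 to 248 CPM on average, and Mmp13 went from 498 to 5.45 CPM. Rxra itself averaged 96.4 and 146 CPM in FBS and atRA+PKCi in cultures labelled Rxra cKO, and 136 and 145 CPM in wild-type cultures. A gene total holds reads outside the deleted exon, so these levels do not check the labels.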

How the results depend on the processing

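Calls were 4192 higher and 4417 lower with RLE size factors, 3432 and 4039 with DESeq2, 4459 and 4659 without a filter, 4083 and 4090 at 1 CPM or more in 2 libraries, 3632 and 3808 from only the 4 wild-type libraries, and 3654 and 4013 by limma on the authors' normalized table, against 4350 and 4249. They ranged from 3443 to 3991 higher and from 3654 to 4209 lower when each library was left out. At the stricter threshold 1381 genes were higher and 1579 lower. With the replicate block, which pairs cultures of a mouse, 4238 genes were higher and 4232 lower, 3 of the 580 genes tried lost their call and 4 gained one, and of the calls over all genes 4085 higher and 4094 lower were shared with the fit without the block. Across all alternatives none of them changed sign with a call, and between 0 and 33 lost the call per alternative. Higher genes made up 45.9% to 50.6% of calls. Leaving out FBS replicate 1 or 2 moved the medians of 33 or 32 of the 45 lists by more than the spread between replicates. List medians with few or low members turned sign in places. The median of the hair lineages was -0.39 at 1 CPM or more and -0.41 from the 4 libraries (0.59 in the full fit), that of the circadian clock -0.02 under limma with either pseudocount (0.46), that of fibroblast markers 0.55 at 1 CPM or more (-0.79), that of immune markers -2.78 from the 4 libraries (1.44), and that of the sebaceous gland lay between -0.49 and 0.02 with 1 library left out (-0.21), the highest without FBS replicate 1. The causes were not tested. With 2 libraries a medium, calls of genes under 1 CPM rest on few reads.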

Other observations

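The 2 deposited tables were compared for the same libraries. Of 6247 genes with at least 20 CPM in both media, 27 (0.432%) had a log2 ratio of atRA+PKCi over FBS that differed by more than 0.5 between the authors' normalized table and the estimated counts, and 23 of them were lower in the normalized table. The middle 90% of differences lay between -0.181 and 0.109. Ide, the insulin-degrading enzyme, had a ratio of -1.9 in the counts and -2.84 in the normalized table, and Timp2, an inhibitor of matrix metalloproteinases, -0.39 and -1.11. Among genes called in the counts, 26 changed sign. These genes were chosen after their values were seen, and the cause was not tested.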
